A study of Mus musculus with 6 samples.

Results

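The genes described here are serum response factor and a set of genes of the actin filament, measured in cells of the adult mouse heart other than cardiomyocytes. They are Srf, the cytoplasmic actins Actb and Actg1, the tropomyosins Tpm1, Tpm2, Tpm3 and Tpm4, the myosin regulatory light chain Myl9 and the caldesmon gene Cald1, 9 of the 24062 rows of the count table, found there by their symbols. All 9 passed the filter on low counts, as did 13180 rows in all.

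Both groups came from mice of the genotype Tw2-CreERT2;R26-tdTO, which carry a tamoxifen-dependent Cre recombinase under a Twist2 driver and a Cre-dependent tdTomato reporter. The mice received tamoxifen (TMX) at 8 weeks of age, are recorded as 9 weeks old, and gave their cells on day 10 after the first dose. Sorting of the non-cardiomyocyte fraction used the reporter and a Mitoview633 stain, and 3 libraries were made from tdTomato-positive cells (Tw2+) and 3 from tdTomato-negative cells (Tw2-). The groups thus share genotype, age and treatment and differ in the reporter. The label is permanent, so Tw2+ cells include descendants of cells in which the driver was active, and whether hearts were pooled for a library is not stated.

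SRF is a transcription factor that binds a DNA element called the CArG box. It works with myocardin-related transcription factors, which are held back by monomeric actin, and with ternary complex factors, which respond to ERK signalling. Many of its known target genes encode actin and actin-binding proteins, its own gene among them. Tropomyosins are coiled coils that lie along the actin filament, and each tropomyosin gene yields several isoforms by alternative promoters and splicing. In fibroblasts these genes are known for their part in stress fibres, and in smooth muscle for contraction.

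The libraries held from 11746696 to 16447098 counts. The 13 fibroblast markers summed to between 28368 and 31408 CPM, counts scaled to library size with TMM factors, in Tw2+ and between 16488 and 24643 CPM in Tw2-, with 2 of 13 called higher. Many markers of other cells were lower in Tw2+, with all 10 macrophage and monocyte markers called lower (127 to 305 CPM summed, against 2529 to 5563 CPM), all 6 granulocyte markers (2.42 to 2.85 CPM against 153 to 321 CPM, with Retnlg and Cxcr2 at 0 in Tw2+) and all 5 B cell markers (1.31 to 1.54 CPM against 18.8 to 24.2 CPM, with Blk at 0 in Tw2+). All 10 cardiomyocyte markers were called lower (149 to 485 CPM against 784 to 1486 CPM). The 10 vascular endothelial markers summed to between 248 and 752 CPM in Tw2+ and between 635 and 1962 CPM in Tw2-, with 4 called lower. Of 7 smooth muscle markers 6 were tested and 3 called lower (147 to 177 CPM against 201 to 216 CPM), and Cnn1 was below the count minimum. The 3 were Myh11, Mylk and Des, while Smtn, the most abundant of the list, was at log2 0.04. The 7 pericyte markers overlapped between the groups (539 to 671 CPM in Tw2+ and 379 to 720 CPM in Tw2-), where Pdgfrb, called higher (log2 0.84), made up most of the Tw2+ sum and the other 6 were fitted below 0, with a list median of -0.84. Of 5 platelet markers 3 were tested and 1 called lower, Pf4, while Itga2b was fitted above 0 (log2 0.69, not called). The 5 summed to 14.0 to 15.2 CPM against 70.1 to 144 CPM, and Pf4 made up most of the Tw2- sum. The 2 that were below the count minimum were at 0 in every Tw2+ library.

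Srf rose in Tw2+, and it was the only one of the 9 genes to pass the test. Its level was 136 CPM in Tw2- 2, 105 CPM in Tw2- 3 and 105 CPM in the third Tw2- library, called unnumbered because its table column gives no replicate number. It was 239 CPM in Tw2+ 2, 172 CPM in Tw2+ 3 and 323 CPM in the unnumbered Tw2+ library. Every Tw2+ value lay above every Tw2- value, and Tw2+ 3 lay closest to the other group. Tw2+ averaged 245 ± 75.7 CPM against 115 ± 17.8 CPM for Tw2- (SD, n = 3 each), a 2.12-fold difference. The log2 fold change was 1.08 (SE 0.26, 95% interval 0.50 to 1.66, adjusted p = 0.0234 in edgeR's quasi-likelihood test over all genes). Calls here and below are those at an adjusted p under 0.05. Of all tested genes, 7.41% were called higher, so 1 of 9 is close to that background.

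The call of Srf depended on single libraries. With 1 library left out at a time its log2 fold change stayed between 0.84 and 1.29, but it passed in 2 of 6 fits. The adjusted p was 0.0437 without Tw2- 2 and 0.00222 without Tw2+ 3. It was 0.118 when Tw2- 3 was omitted and 0.0700 when Tw2+ 2 was. Omitting the unnumbered library gave 0.0790 for the one of Tw2- and 0.0680 for the one of Tw2+. Calls over all genes moved as well, with 81 higher without Tw2- 3 and 2801 without Tw2+ 3, against 976 with all libraries. Tw2+ 3, with the lowest Tw2+ value of Srf, also had the highest endothelial marker sum of its group (752 CPM against 318 and 248 CPM), whose part in the value was not tested. In bulk libraries, fewer cells of a type and less RNA per cell cannot be told apart, here and below.

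**Figure D1:**
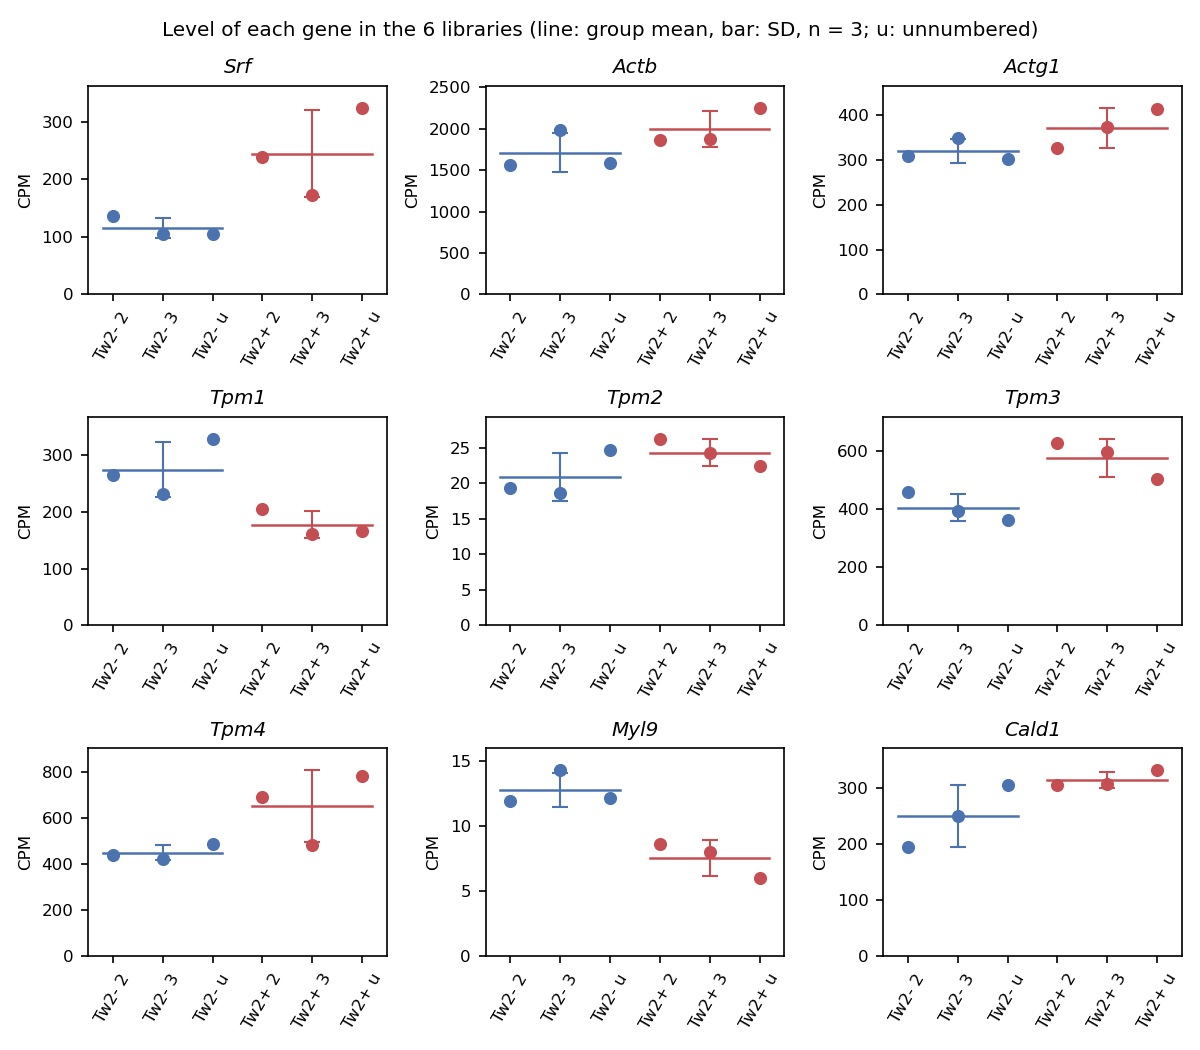
CPM of the 9 genes in each library, with Tw2- in blue and Tw2+ in red (line: group mean, bar: SD, n = 3, u: unnumbered). Srf reads 105 to 136 CPM in Tw2- and 172 to 323 CPM in Tw2+, while the values of Actb, Actg1, Tpm2, Tpm4 and Cald1 overlap between the groups.

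The upstream windows of Srf, Actg1 and Myl9 are shown because, among the windows that could be searched, they are the ones that hold a CArG box. RefSeq entries on GRCm38.p6 were matched for 8 of the 9 genes, all but Actb, with 10 start sites in all. The 250 bases before each start site were searched for the CArG box on both strands, where its pattern reads the same. It was found at 3 of the 10 start sites, and 1.47% of the 32851 windows of the same length in the whole table held one. The lines below give the part of each window that lies outside the gene's own GENCODE model, 5′ to 3′ on the gene's strand, with CArG boxes in capitals. They are chr17:46556176-46556412 on the minus strand for Srf, chr11:120348543-120348745 on the minus strand for Actg1 and chr2:156775214-156775419 on the plus strand for Myl9.
Srf: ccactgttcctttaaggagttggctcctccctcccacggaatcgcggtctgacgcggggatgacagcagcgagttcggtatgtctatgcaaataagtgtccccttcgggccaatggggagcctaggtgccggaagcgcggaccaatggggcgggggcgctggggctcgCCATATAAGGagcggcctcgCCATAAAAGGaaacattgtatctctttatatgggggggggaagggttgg
Actg1: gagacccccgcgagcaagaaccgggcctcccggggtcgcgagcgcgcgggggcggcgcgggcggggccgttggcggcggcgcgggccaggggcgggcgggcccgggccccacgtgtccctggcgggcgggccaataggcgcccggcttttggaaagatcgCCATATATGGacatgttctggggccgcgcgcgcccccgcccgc
Myl9: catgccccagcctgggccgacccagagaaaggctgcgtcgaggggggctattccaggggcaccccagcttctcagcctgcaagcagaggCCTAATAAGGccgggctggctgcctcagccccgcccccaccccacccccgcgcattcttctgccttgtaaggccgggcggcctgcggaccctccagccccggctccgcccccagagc
Srf had 2 boxes, CCATATAAGG from 82 to 73 bases and CCATAAAAGG from 62 to 53 bases before its start site. Actg1 had CCATATATGG from 90 to 81 bases before its start site, and Myl9 had CCTAATAAGG from 161 to 152 bases. Allowing exactly 1 mismatch, 6 of the 10 windows held a match, against 17.5% of all windows. These were windows of Srf, Tpm1, Tpm3, with both of its start sites, Myl9 and Cald1. Of the 3 genes with a full match Srf passed the test, at a log2 fold change of 1.08, and Actg1 (0.21) and Myl9 (-0.75) did not. The GC-rich motif GGGCGG stood in 7 of the 10 windows and in 32.7% of all windows, and the TEAD motif CATTCC, found in Tpm1 and Cald1, in 12.6% of all windows. TATAAA was found in Srf and Cald1 and in 12.4% of all windows, and in Srf it lies, on the opposite strand, within the match with 1 mismatch.

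The cytoplasmic actins, which form the filaments of non-muscle cells, did not pass the test. Actb read 1559, 1983 and 1589 CPM in Tw2-, with library 2 first, then 3 and then the unnumbered one, and 1862, 1871 and 2245 CPM in Tw2+. The Tw2- 3 value lay above 2 of the 3 Tw2+ values. The means were 1711 ± 237 CPM in Tw2- and 1992 ± 219 CPM in Tw2+ (SD, n = 3 each), and the fitted log2 difference was 0.22 (SE 0.23, 95% interval -0.31 to 0.75, adjusted p = 0.520 in edgeR). Actg1 read 309, 350 and 301 CPM in Tw2- and 326, 372 and 414 CPM in Tw2+, in the same order, and the groups overlapped. Its fitted log2 difference was 0.21 (SE 0.19, 95% interval -0.22 to 0.65, adjusted p = 0.448). The intervals of both actins end below the point estimate of Srf but overlap its interval of 0.50 to 1.66, and no test compared the genes with each other.

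The split between Actb and Actg1 varied little. Actb held 83.5%, 85.0% and 84.1% of the counts of both actin genes in the Tw2- libraries and 85.1%, 83.4% and 84.4% in the Tw2+ libraries. The mean difference was 0.13 percentage points (exact permutation test, two-sided, p = 0.8, 0.8 after Benjamini-Hochberg adjustment over 5 shares), and such a share does not depend on how libraries are scaled. With 3 against 3 libraries p cannot fall below 0.1. For Actg1, 6 pseudogenes elsewhere in the genome matched its longest transcript at 95% identity or more over at least 100 bases and covered 57.8% of its length, so its reads may be shared. None was found for Actb under the same search.

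Fitted values of the tropomyosin genes lay on both sides of 0, and none of the 4 genes passed in edgeR. There, 3 had an unadjusted p under 0.05 (36.7% of all genes did), and DESeq2 called 1 (25.8% of all genes called). Tpm1, which encodes the main sarcomeric tropomyosin of the heart as well as isoforms of smooth muscle and fibroblasts, read 265, 230 and 327 CPM in Tw2-, in the same order of libraries. In Tw2+ it read 205, 160 and 167 CPM, all below the lowest Tw2- value. From 274 ± 49.0 CPM in Tw2- to 177 ± 24.2 CPM in Tw2+ (SD, n = 3 each), the log2 difference was -0.63 with an SE of 0.21, and it missed the threshold in edgeR (adjusted p = 0.0667). It passed in DESeq2 (-0.63, adjusted p = 0.0289). Counts per gene do not separate its isoforms. The unnumbered Tw2- library had the highest Tpm1 value and the highest cardiomyocyte marker sum (1486 CPM, against 1219 CPM in Tw2- 2 and 784 CPM in Tw2- 3). In Tw2+ those sums were 485, 263 and 149 CPM, and the part of cardiomyocyte RNA in the Tpm1 values was not tested.

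Tpm3 and Tpm4, whose products are common in the cytoskeleton of non-muscle cells, had fitted values above 0. Tpm3 read 457, 393 and 364 CPM in Tw2- and 626, 597 and 503 CPM in Tw2+, in the same order of libraries. All Tw2+ values lay above all Tw2- values, at 0.51 on the log2 scale (SE 0.20, adjusted p = 0.108 in edgeR). Tpm4 read 438, 422 and 485 CPM in Tw2- and 690, 482 and 783 CPM in Tw2+. Its Tw2+ 3 value of 482 CPM lay just under the highest Tw2- value, and its log2 value was 0.54 (SE 0.23, adjusted p = 0.131). Without Tw2+ 3, which had the lowest Tw2+ value of Tpm4, Tpm4 passed, at 0.72 (adjusted p = 0.0204). That fit called 2801 of all genes higher, against 976 with all libraries. Scaled to the fibroblast markers they were at -0.19 (Tpm3) and -0.14 (Tpm4), in a fit that put the median of all genes at -0.66, and they stood 0.47 and 0.51 above that median. In GENCODE, 1 pseudogene covered 34.8% of the Tpm4 transcript and 1 further gene 22.0% of that of Tpm3 at the same identity, and neither has a row of its own in the table.

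Tpm2, a tropomyosin of smooth and skeletal muscle, was the lowest of its family. It read 19.3, 18.6 and 24.7 CPM in Tw2- and 26.2, 24.3 and 22.5 CPM in Tw2+, with overlapping groups, at a log2 value of 0.22 (SE 0.21, adjusted p = 0.468 in edgeR).

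Within the tropomyosin counts of a library, the share of Tpm1 was lower in Tw2+. It was 22.4%, 21.6% and 27.2% in the Tw2- libraries and 13.3%, 12.7% and 11.3% in the Tw2+ libraries, with means of 23.8% ± 3.03 and 12.4% ± 1.00 (SD, n = 3 each). The groups did not overlap, and the difference of -11.4 percentage points gave p = 0.1 in the two-sided exact permutation test, the smallest p this design allows, or 0.5 after adjustment over the 5 shares. With each library left out in turn the difference ranged from -12.4 to -9.63 points. Tpm4 held 39.1% ± 1.68 in Tw2- and 45.3% ± 7.49 in Tw2+, from 38.1% in Tw2+ 3 to 53.1% in the unnumbered Tw2+ library (exact permutation p = 0.3, adjusted 0.667). Tpm3 held 35.3% ± 4.45 and 40.6% ± 6.58 (exact p = 0.4, adjusted 0.667), and Tpm2 held 1.82% ± 0.219 and 1.71% ± 0.202 (exact p = 0.6, adjusted 0.75). These 3 shares overlapped between the groups.

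**Figure D2:**
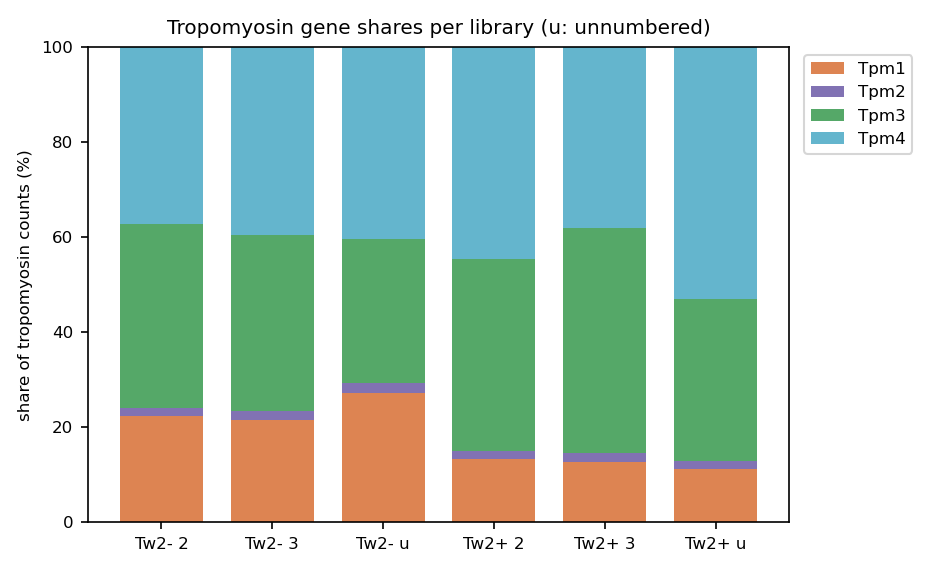
Share of each tropomyosin gene in the summed counts of Tpm1 to Tpm4, in percent, for each library (u: unnumbered). The Tpm1 segment spans 21.6% to 27.2% in the Tw2- libraries and 11.3% to 13.3% in the Tw2+ libraries.

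Myl9, the regulatory light chain of smooth muscle and non-muscle myosin II, was low throughout. It had 198, 266 and 155 counts in the Tw2- libraries and 100, 99 and 60 counts in the Tw2+ libraries, in the same order, or 11.9, 14.3 and 12.2 CPM against 8.64, 8.05 and 6.04 CPM. All Tw2+ values lay below all Tw2- values. The log2 fold change was -0.75 (SE 0.25, adjusted p = 0.0648 in edgeR), which did not pass, while DESeq2 called it lower (-0.75, adjusted p = 0.0248). It passed in 1 of 6 fits with 1 library left out, the one without Tw2+ 3 (-0.80, adjusted p = 0.0418). That fit called 2906 of all genes lower, against 1419 with all libraries. The smooth muscle marker sums, 201 to 216 CPM in Tw2- and 147 to 177 CPM in Tw2+, moved the same way, and their part in Myl9 was not tested. Not all of these markers did so. Myh11, Mylk and Des were called lower, while Smtn (log2 0.04), the most abundant of them, Acta2 (-0.18) and Lmod1 (-0.63) were not.

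Cald1 encodes caldesmon, which binds actin and tropomyosin and restrains myosin. It read 196, 251 and 306 CPM in Tw2- and 305, 307 and 331 CPM in Tw2+, in the same order. The value of the unnumbered Tw2- library lay between the lowest and the middle Tw2+ value, and the log2 fold change of 0.33 (SE 0.21, 95% interval -0.15 to 0.81) did not pass (adjusted p = 0.294).

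Taking the 9 genes as a set, 1 was called higher and 0 lower in edgeR, where 7.41% and 10.8% of all tested genes were, or 18.2% in either direction. An unadjusted p under 0.05 was reached by 5 of the 9, 3 above 0 and 2 below, against 36.7% of all genes. DESeq2 called 1 higher and 2 lower (25.8% of all genes called), and limma-voom called 1 higher and 0 lower (15.8%). The groups' values did not overlap for 4 of the 9, Srf, Tpm1, Tpm3 and Myl9, against 37.4% of all genes. Their median log2 fold change was 0.22, with 7 of 9 fitted above 0, and the median of all tested genes was 0.002.

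**Figure D3:**
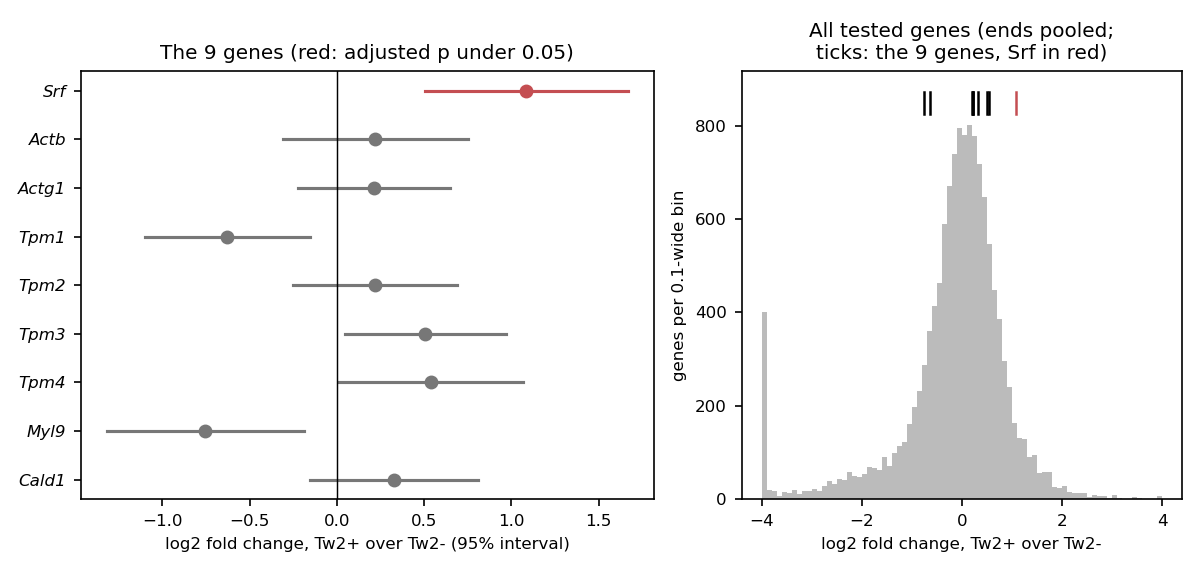
Left, log2 fold change of Tw2+ over Tw2- with its 95% interval for the 9 genes, with Srf, the one called gene, in red at 1.08. Right, the distribution of the same value over the 13180 tested genes, with the 9 genes marked as ticks from -0.75 to 1.08.

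Levels were compared between genes per kilobase of exon, as CPM per kb of the union of a gene's exons. Actb was highest, with 639 ± 88.3 CPM per kb for Tw2- and 744 ± 81.6 for Tw2+ (SD, n = 3 each), followed by Tpm4 at 203 ± 14.9 and 296 ± 70.0 and Actg1 at 120 ± 9.81 and 140 ± 16.6. These levels did not overlap over the 6 libraries. Tpm3 (66.5 and 94.6), Srf (39.9 and 84.6), Tpm1 (42.3 and 27.4) and Cald1 (20.8 and 26.1) came next, and each overlapped its neighbour in that order over the 6 libraries. Myl9 (11 and 6.52) and Tpm2 (7.18 and 8.36) were lowest and overlapped as well. Within Tw2- Srf and Tpm1 overlapped, whereas within Tw2+ the lowest Srf level lay above the highest Tpm1 level. With the length of the longest transcript in place of the exon union, Tpm3 passed Actg1, Tpm1 passed Srf and Tpm2 passed Myl9 in the mean over libraries.

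On the GRCm38 genome (GENCODE M21), the 9 genes lie on 9 chromosomes. Srf is at chr17:46548329-46556175 on the minus strand, Actb at chr5:142903115-142906754 and Actg1 at chr11:120345690-120348542, both also on the minus strand. Tpm1 is at chr9:67022590-67049406 and Tpm2 at chr4:43514711-43523765 on the minus strand, Tpm3 at chr3:90072649-90100902 and Tpm4 at chr8:72134975-72153142 on the plus strand. Myl9 is at chr2:156775420-156781658 and Cald1 at chr6:34598500-34775473 on the plus strand. Exonic overlap with another gene reached 5.53% of the exon length of Actg1, on the same strand, and 6.08% of that of Tpm4, with the antisense gene Gm26586, and was 0 for the other genes.

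The scaling of libraries moved all genes together. Relative to TMM, the median of all genes shifted to -0.28 with library size alone, to -0.66 with scaling to the fibroblast markers and to -0.22 with scaling to the summed counts of Actb and Actg1, a setting added after the data were seen. Srf stood 1.05, 1.02 and 1.04 above that median, against 1.08 with TMM. Its own value was 0.78 (adjusted p = 0.0436), 0.36 (adjusted p = 0.383) and 0.83 (adjusted p = 0.0688) in these fits, so it passed with library size alone and did not pass in the others. Tpm1 and Myl9 were below 0 in all 6 alternative scalings and were called lower in 3 each. The fits that called either of them lower called from 1360 (upper-quartile factors) to 3966 (fibroblast markers) of all genes lower, against 1419 with TMM. The other 6 genes were below 0 with scaling to the fibroblast markers, but stood from 0.20 (Actg1) to 0.51 (Tpm4) above the median of all genes in that fit.

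**Figure D4:**
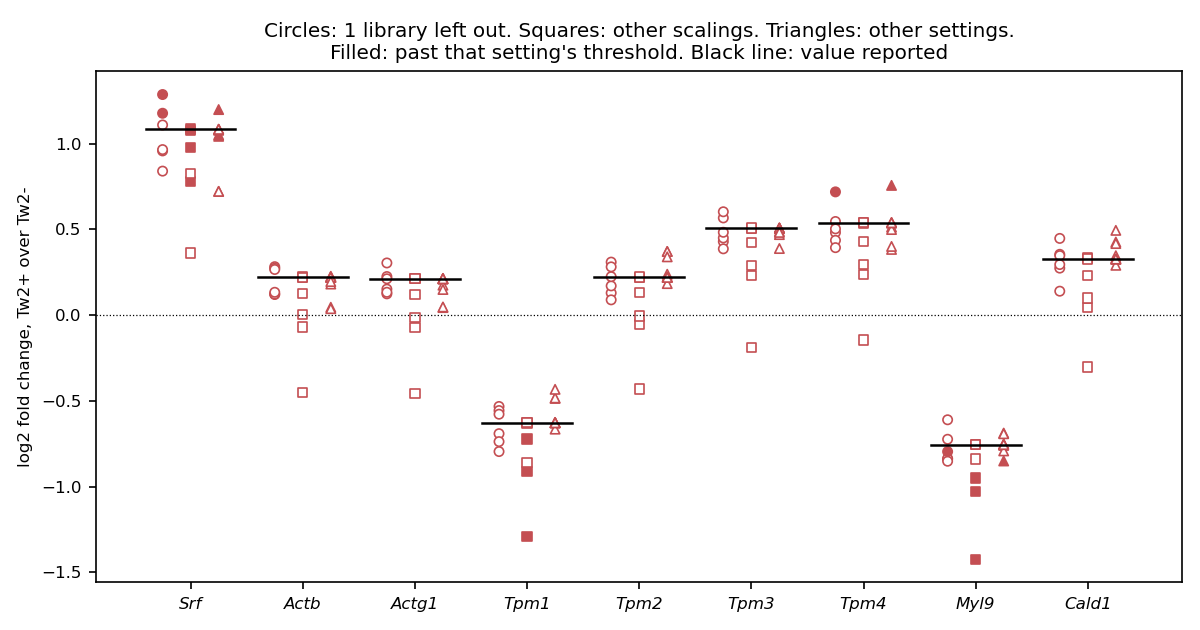
Log2 fold change of the 9 genes with 1 library left out (circles), under other scalings (squares) and under other settings (triangles), filled where the gene passed. Srf lies between 0.36 and 1.29 in all of them, and Tpm1 and Myl9 stay below 0.

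Of 7 listed cofactors of SRF and related factors 6 were tested, and 0 passed in edgeR and in limma-voom. DESeq2 called 1, Elk3, lower (25.8% of all genes called in either direction). Myocd, the cardiac and smooth muscle cofactor myocardin, was below the count minimum. Elk3, a ternary complex factor, averaged 80.6 ± 23.5 CPM for Tw2- and 47.7 ± 6.96 CPM for Tw2+ (log2 -0.76, adjusted p = 0.0655 in edgeR and 0.0401 in DESeq2), the one cofactor with an unadjusted p under 0.05 in edgeR. It passed in edgeR when Tw2+ 3 or the unnumbered Tw2- library was omitted. The latter had the lowest Elk3 level and the lowest endothelial marker sum of Tw2- (635 CPM against 1904 and 1962 CPM), whose part was not tested. Elk1 was at 0.46 (adjusted p = 0.172), Mkl1 and Mkl2, which encode the myocardin-related factors, at -0.01 and 0.23, and Mef2a at -0.28.

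Of 24 listed genes known as targets of SRF with its actin-sensitive cofactors, 23 were tested, 4 were called higher (17.4%, beside 7.41% of all genes) and 3 lower (13.0%, beside 10.8%), with a median log2 fold change of 0.21. Ctgf, a matricellular protein gene that YAP and TEAD also drive, rose 6.33-fold, its mean going from 1485 to 9393 CPM (log2 2.66 with an SE of 0.46, adjusted p = 0.00570). The integrin gene Itga5 (2.12, adjusted p = 0.0152), the adhesion protein vinculin, Vcl (0.96, adjusted p = 0.0485), and Pdlim7 (0.89, adjusted p = 0.0208) rose too. Vcl did not pass in limma-voom (adjusted p = 0.0567). Talin, Tln1 (-0.92, adjusted p = 0.0145), calponin 2, Cnn2 (-0.95, adjusted p = 0.0177), and testin, Tes (-3.48, adjusted p = 0.00501), fell. Tes was low, with means of 15.4 CPM in Tw2- and 1.36 CPM in Tw2+. When each library was omitted in turn, Ctgf and Tes passed in 6 of 6 fits, Itga5 in 4, Cnn2 and Tln1 in 3, and Vcl and Pdlim7 in 1.

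Of 12 genes for actin monomer binding and turnover, Tmsb10 rose (0.79, adjusted p = 0.0357) and Tmsb4x, Twf2 and Cap2 fell, 8.33% and 25% beside 7.41% and 10.8% of all genes. DESeq2 called 2 higher and 5 lower in this list, where it called 1575 higher and 1827 lower of all 13180 genes (25.8% in either direction). Tmsb4x, a thymosin that sequesters monomeric actin, went from 835 ± 226 CPM to 441 ± 21.2 CPM (log2 -0.92, adjusted p = 0.0352), and the twinfilin gene Twf2 fell by 1.6 (adjusted p = 0.00256) and Cap2 by 1.17 (adjusted p = 0.0415). Within Tw2- the Tmsb4x values of 843, 1056 and 605 CPM had the same order as the macrophage and monocyte marker sums of 4545, 5563 and 2529 CPM, whose part in these genes was not tested. Of 17 genes for nucleation and capping edgeR called 1 lower (5.88%, beside 10.8% of all genes), Diap3, a formin gene with under 3 CPM in every library (-1.49, adjusted p = 0.0432). In that list Actr2, a subunit of the Arp2/3 complex, was at -0.51 (adjusted p = 0.0726 in edgeR and 0.0179 in DESeq2, which called it) and Arpc1b, its most abundant gene, at -0.26. Without each library in turn, Twf2 passed in 6 of 6 fits, Tmsb4x in 2, Tmsb10 and Cap2 in 1 and Diap3 in 0.

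Of 7 tested tropomodulins, calponins and leiomodins, 1 was called higher and 3 lower, and of 3 tested muscle actins 1 was called lower, beside 7.41% higher and 10.8% lower of all genes. Tmod1, which caps filaments in muscle and red blood cells, fell to a mean of 5.89 CPM, against 26.6 CPM for Tw2- (log2 -2.18 with an SE of 0.27, adjusted p = 0.000895). The striated muscle gene Lmod2 (-1.53, adjusted p = 0.0492) and Cnn2 fell, and Cnn3, calponin 3, rose (0.74, adjusted p = 0.0268), while Tmod3, a tropomodulin of non-muscle cells, was at -0.02. Among muscle actins Actc1, the cardiac actin and one of the cardiomyocyte markers, fell by 1.98 (adjusted p = 0.0140), while Acta2, smooth muscle actin, was at -0.18 (adjusted p = 0.622) and Acta1 at -0.87 (adjusted p = 0.296). None of 6 subunits of nonmuscle myosin II passed in edgeR, with 1 at an unadjusted p under 0.05 (36.7% of all genes), Myl12b (-0.52). The heavy chains Myh9 and Myh10 were at -0.09 and -0.49. When each library was omitted, Tmod1 and Actc1 passed in 6 of 6 fits, and Lmod2 and Cnn3 in 1. The part of the lower cardiomyocyte and smooth muscle marker sums in these genes was not tested.

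Over the 7 lists, 71 of 75 genes were tested, 6 were called higher and 10 lower, or 8.45% and 14.1%, beside 7.41% and 10.8% of all genes. Their median log2 fold change was 0.02. With 1 library left out, the count of higher genes ran from 1 to 14, the latter without Tw2+ 3, and that of lower genes from 4 to 13. Over all genes the same fits called 81 to 2801 higher and 811 to 2906 lower. Without Tw2+ 3, 2801 of all 13561 tested genes were called higher.

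**Figure D5:**
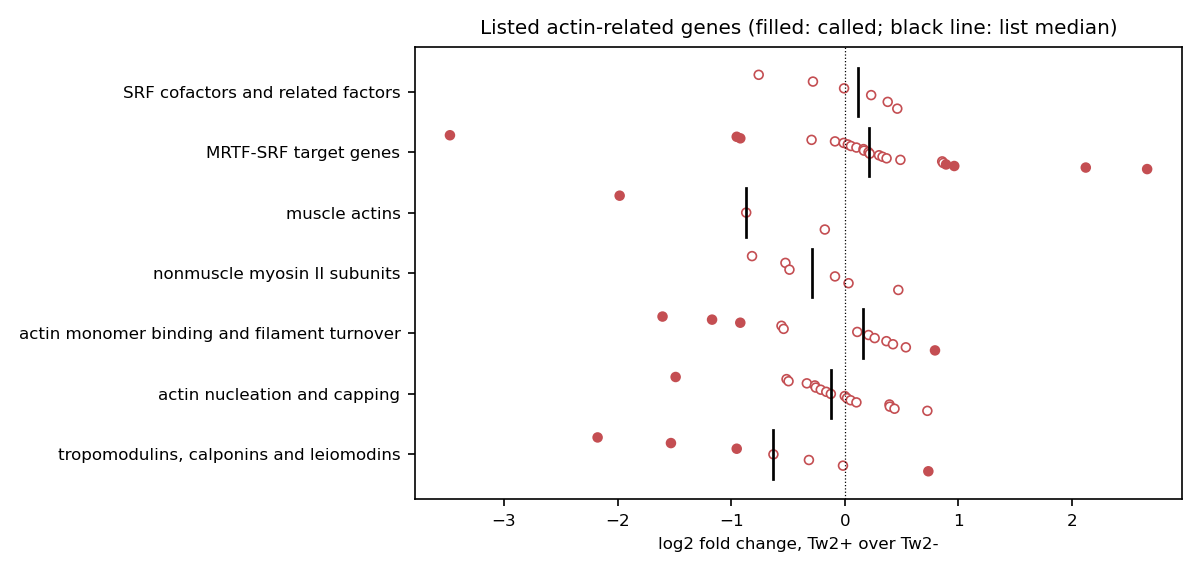
Log2 fold change of Tw2+ over Tw2- for each tested gene of the 7 actin-related lists, filled where called, with the list median as a black line. Called genes lie on both sides of 0 in the list of SRF targets, from Tes at -3.48, with a mean of 1.36 CPM in Tw2+, to Ctgf at 2.66.

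The genes whose log2 CPM over the 6 libraries was most like that of Srf were Rexo1, Tspan5, Slc35e3, Las1l and Capn15, with Pearson r from 0.996 to 0.998. These were the top 5 of 8877 genes with at least 10 CPM, of which 1738 had an r over 0.9, and all share the split between the groups. Their log2 fold changes ran from 0.69 to 1.5. Most like the mean log2 CPM of the 8 other genes were Sep15, Aif1l, Mllt3, Rab28 and Wls (r from 0.976 to 0.986), and 205 genes had an r over 0.9. None of these 5 passed in edgeR, with adjusted p from 0.269 to 0.611 and none at an unadjusted p under 0.05.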

How the data were processed

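The deposited table holds raw counts by gene symbol, as whole numbers in 6 library columns, all of them used. TopHat2 2.0.0, DESeq2 1.6.3, GRCm38 and mm10 are named, without roles, in the submitters' processing notes. The counting program, its strand setting and its annotation were not given in the sources used here. The headers of 4 columns name a group and a replicate number, those of 2 a group alone.

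Counts were tested with edgeR 4.0.16 in R 4.3.3 (glmQLFit, then glmQLFTest), using all 6 libraries and TMM factors (0.846 to 1.13), after filterByExpr at a minimum count of 10, with Benjamini-Hochberg adjustment over all 13180 genes. SE is the log2 fold change divided by the root of its F value. Shares of counts were compared by exact permutation over libraries. DESeq2 1.42.0 and limma 3.58.1 (voom), other scalings and filters and each library left out were alternatives. The code was tested on simulated data. The 7 pathway and 9 marker lists and the 9 genes were chosen with earlier results of these data known. Named list genes are, per list, the 2 with the smallest adjusted p and the 1 with the highest level. Other called list genes, Mkl1, Mkl2 and Acta2 were named after their values were seen. A further pathway list is not reported here. Near-identical copies were sought with blastn 2.17.0 in GENCODE M21 transcripts. That annotation matched 94.6% of the 24062 symbols and all 9 genes.

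The labels call the replicates biological. On that label each counted as 1. Within each group every pair differed beyond sampling noise (chi-square at least 27.1 times its degrees of freedom). That is a check for repeated sequencing of 1 library and does not test whether the replicates are independent. Permutations and intervals measure the spread between these libraries.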

Additional observations from a re-analysis of the deposited data

How the results depend on the processing

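With TMM on all libraries 976 genes were called higher and 1419 lower, 1 of the 9 genes higher (Srf, 1.08) and 0 lower, and 6 listed genes higher and 10 lower. DESeq2 called 1575 genes higher and 1827 lower, with 2 of the 9 lower. Upper-quartile factors gave 811 genes higher and 1360 lower, with 1 of the 9 lower. Library size alone gave 404 genes higher and 1716 lower, 2 of the 9 lower, and 3 listed genes higher and 16 lower. Scaling to the fibroblast markers gave 114 higher and 3966 lower, 0 of the 9 higher and 2 lower, 1 listed gene higher and 26 lower, and Srf at 0.36. An adjusted p under 0.01 left 90 and 701 genes, 0 of the 9, and 1 and 3 listed genes, with Srf at 1.08 (adjusted p = 0.0234) not passing. Scaling to Actb and Actg1 gave 402 higher and 1774 lower, 0 of the 9 higher and 1 lower, 2 listed genes higher and 12 lower, and Srf at 0.83. Without Tw2+ 3 and the unnumbered Tw2- library 2565 genes were higher and 3068 lower, 2 of the 9 higher and 1 lower, and 14 listed genes higher. On the main axis of variation in log2 CPM these libraries lay nearest the other group (27.9 and -46.1). Leaving them out therefore sets the groups further apart by construction. Direction of Srf was kept throughout; where calls changed, the cause was not tested.

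The numbered libraries were also fitted in pairs. Same-numbered libraries deviated together (r = 0.43 over genes), but with 2 pairs and no label for a shared batch the samples share only a number. The replicate block gave 1300 genes higher and 2203 lower and Srf at 0.72 (adjusted p = 0.0114). The same 4 libraries without it gave 115 higher and 1195 lower, 0 of the 9 higher, 1 and 4 listed genes, and Srf at 0.72 (adjusted p = 0.171).

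With 1 library left out, higher genes ran from 81 to 2801, lower genes from 811 to 2906, the 9 genes from 0 to 2 higher and 0 to 1 lower, listed genes from 1 to 14 higher and 4 to 13 lower, and Srf from 0.84 to 1.29. The Actb share difference ran from -0.26 to 0.59 points (-0.23 without Tw2- 2) and that of Tpm2 from -0.21 to 0.02 (0.019 without the unnumbered Tw2- library).

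Signs reversed with library size alone for Actb (-0.069), Actg1 (-0.071) and Tpm2 (-0.056). With the fibroblast markers they reversed for Actb (-0.45), Actg1 (-0.46), Tpm2 (-0.43), Tpm3 (-0.19), Tpm4 (-0.14), Cald1 (-0.30) and Elk1 (-0.22), and with Actb and Actg1 for Actg1 (-0.012) and Tpm2 (-0.0046). Without Tw2+ 3 and the unnumbered Tw2- library Acta1 was at 0.10 and Tmod3 at 0.077. Without Tw2+ 3 Myh9 was at 0.067 and Tmod3 at 0.064, where its lowest value was -0.083, without Tw2- 3. Among the 9 genes, Myl9 had the fewest counts, 60 in its lowest library.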

Other observations

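Some ratios of counts within a library, chosen after the data were seen and given without a test, do not depend on how libraries are scaled. Srf had 72.8, 45.1 and 55.5 counts per 1000 counts of Actb and Actg1 in Tw2-, with library 2 first, then 3 and then the unnumbered one, and 109, 76.7 and 122 in Tw2+. Every Tw2+ ratio lay above every Tw2- ratio, with Tw2- 2 and Tw2+ 3 closest. Myl9 had 6.39, 6.13 and 6.44 counts per 1000 in Tw2- and 3.95, 3.59 and 2.27 in Tw2+, without overlap. The 4 tropomyosin genes together overlapped between the groups on this scale, at 574 ± 102 counts per 1000 in Tw2- and 608 ± 85.5 in Tw2+ (SD, n = 3 each).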
